A study of Mus musculus with 10 samples.

Results

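The feedback inhibitors of EGFR (epidermal growth factor receptor) and MAPK (mitogen-activated protein kinase) signaling described here are 10 genes of 37947 gene symbols in the deposited RNA sequencing table. They are the EGFR inhibitor Errfi1, the MAPK phosphatases Dusp1, Dusp6 and Dusp10, the Sprouty and Spred genes Spry1, Spry2, Spry4 and Spred1, and the Tribbles genes Trib1 and Trib2. The genes were named as a pathway with earlier results of the comparison of ages known, so that their differences between ages are given as a description and no test was made on them. The table holds 20 transcripts of these genes, all above 0 in at least 1 library, and each gene is represented by the transcript whose mean over the 10 libraries was highest. Of the 10 genes, 8 had a mean of at least 1 FPKM (fragments per kilobase of transcript, scaled to the depth of the library), whereas Spry4 and Spred1 did not.

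The study asked how mRNA levels in mouse skeletal muscle change with age, alongside its small RNA sequencing, which was not analysed here. Gastrocnemius muscle, the large muscle of the calf, was taken from male C57BL/6 mice without any transgene or treatment. The 5 young mice were 6 months old and the 5 aged mice were 24 months old. Each mouse gave 1 library, numbered 1 to 5 within its age (mouse 1 and library 1 are the same), and age was the only difference that the labels give.

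A growth factor such as EGF switches on a receptor tyrosine kinase at the cell surface, which activates Ras and then the kinases Raf, MEK and ERK in turn. Active ERK induces transcription factors such as Fos and Egr1, and it also induces proteins that switch the same cascade off. Such feedback inhibitors act at each level, since some bind the receptor, some hold back Ras or Raf, and the dual-specificity phosphatases remove the activating phosphates from ERK, p38 or JNK. In muscle, ERK and p38 signaling is known for its part in exercise responses, regeneration and the control of fiber mass.

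Short sequences were taken for those members whose promoter or 3′ UTR holds a match to a motif or a miRNA seed. Both promoters below hold the cyclic AMP response element (CRE) TGACGTCA, in capitals, which is bound by CREB and ATF proteins. They are shown because Errfi1 and Dusp1 were the only members with this element within the window of 250 bases before to 50 bases after the RefSeq start site, on GRCm38.p6.
Errfi1 promoter: gctgcgggcgtTGACGTCAcgttgtcgctc
Dusp1 promoter: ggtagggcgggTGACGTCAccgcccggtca
The stretch of Errfi1 is chr4:150855008-150855037 on the plus strand, with the element at -51 from the start site. That of Dusp1 is chr17:26508597-26508626 on the minus strand, with the element at -143 from it. The element was in 1.79% of the 32851 promoters in the table, searched on both strands, and in 2 of the 8 members with a promoter there. Its core TGACG, which overlaps it, was in 20.8% of promoters and in the same 2 members, and Dusp1 held another copy at -191. The AP-1 motif TGANTCA (7.81% of promoters), the SRF CArG box (1.63%) and the ETS motif ACCGGAAG (2.30%) were in none of the 8 members. A match is a description of these letters, and binding was not measured.

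The study considered miR-148a as a regulator of Errfi1 and miR-411 as a regulator of Spry4, so the mature sequences of both are shown with the seed (bases 2 to 8) in capitals. A miRNA lowers the stability or translation of an mRNA whose 3′ UTR pairs with its seed.
miR-148a-3p: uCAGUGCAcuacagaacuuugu
miR-411-5p: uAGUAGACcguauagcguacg
They lie on GRCm38.p6 at chr6:51269829-51269850 (minus strand) and at chr12:109710190-109710210 (plus strand), and have different seeds. Sites that match either seed, in capitals, are shown from the 3′ UTRs of 3 members.
Errfi1, miR-148a: atgctttagaaaaaTGCACTGatctccgca
Trib2, miR-148a: acctaccttggcatTGCACTGttagcattt
Dusp1, miR-411: tcacaaatgtcattGTCTACTcatagaaga
The stretch of Errfi1 is exonic at chr4:150868754-150868783 on the plus strand, with the site at position 1266 of a 3′ UTR of 1390 bases. The stretch of Trib2 is chr12:15793231-15793260 on the minus strand, with the site at position 362 of 1881 bases, and that of Dusp1 is chr17:26505826-26505855 on the minus strand, with the site at position 439 of 690 bases. Spry4 held a site for each miRNA. Among 21022 genes with an annotated 3′ UTR, 12.7% held a site for miR-148a and 6.03% one for miR-411, against 3 and 2 of the 10 members. The miRNAs themselves were not measured in these libraries.

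Values are log2 FPKM as deposited, in which an FPKM under 1 is listed as 0. The depth recovered from the steps between the values was 19886361 to 34554354 reads per library, so that 1 FPKM on a transcript of 1 kb stood for 19.9 to 34.6 reads. The libraries numbered 3 stood apart in both ages. They were the deepest of their groups, yet they listed 35024 (young) and 29878 (aged) transcripts above 0, against 38855 to 43296 in the other 8 libraries. The values of the members are therefore given with and without both of them. Markers of muscle fibers were abundant in every library (summed level of 9 genes, 99326 to 116868 FPKM in young and 87500 to 105196 FPKM in aged muscle), whereas Pax7, Myf5 and Calcr, the markers of satellite cells, were listed at 0 throughout. All 7 macrophage and leukocyte markers had a higher mean in aged muscle, with a summed level of 11.6 to 28.4 FPKM in young and 22.0 to 98.0 FPKM in aged libraries (means 17.7 and 47.6 FPKM). All 4 Schwann cell markers and 4 of 5 adipocyte markers were also higher in mean (mean summed level 48.0 against 82.7 FPKM and 241 against 304 FPKM), as were 4 of 5 markers of smooth muscle and pericytes, 4 of 7 of endothelium, 3 of 6 of fibroblasts and 2 of 9 of muscle fibers. The Schwann cell sum was 13.8 to 108 FPKM in young and 24.3 to 184 FPKM in aged libraries, with an aged mean of 57.4 FPKM without aged library 1. The libraries of the ages overlapped in each of these sums, and the part of these cell types in the values of the members was not tested. In whole muscle, a change in the number of cells of a type and a change in RNA per cell cannot be told apart.

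Errfi1, Trib2 and Trib1 were the members with a difference over 1 on the log2 scale, all of them higher in aged muscle, and no member was lower by as much. For the Tribbles genes this limit was not stable. Without both libraries numbered 3 Trib1 was at 0.77 and Trib2 at 0.94, on log2(FPKM + 1) they were at 0.80 and 0.89, and over the 17 settings they ran from 0.76 to 1.15 and from 0.87 to 1.39. On log2(FPKM + 0.1) Spry4 and Spred1, listed at 0 in young muscle, passed it at 2.51 and 1.52. Of the 10 members, 6 had a higher and 4 a lower mean in aged muscle, and for 6 the difference was smaller than the pooled SD between libraries. The median difference was 0.14 over the 10 members and 0.03 over the 8 members above the filter, against 0.07 over all 10161 genes tested, of which 6241 (61.4%) had a higher mean in aged muscle. The median over the 10 members was 0.09 without both libraries numbered 3.

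Every aged library lay above every young library for Errfi1 and Trib1, that is for 2 of the 8 members above the filter, and for 2.08% of all genes tested. No member had every aged library below every young one, an order that 0.344% of genes showed. The members were chosen on this comparison, so that nothing is read from these counts. When libraries were rescaled by quantile normalization or by the median of ratios, Errfi1 overlapped slightly between ages and only Trib1 was fully separated.

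**Figure D1:**
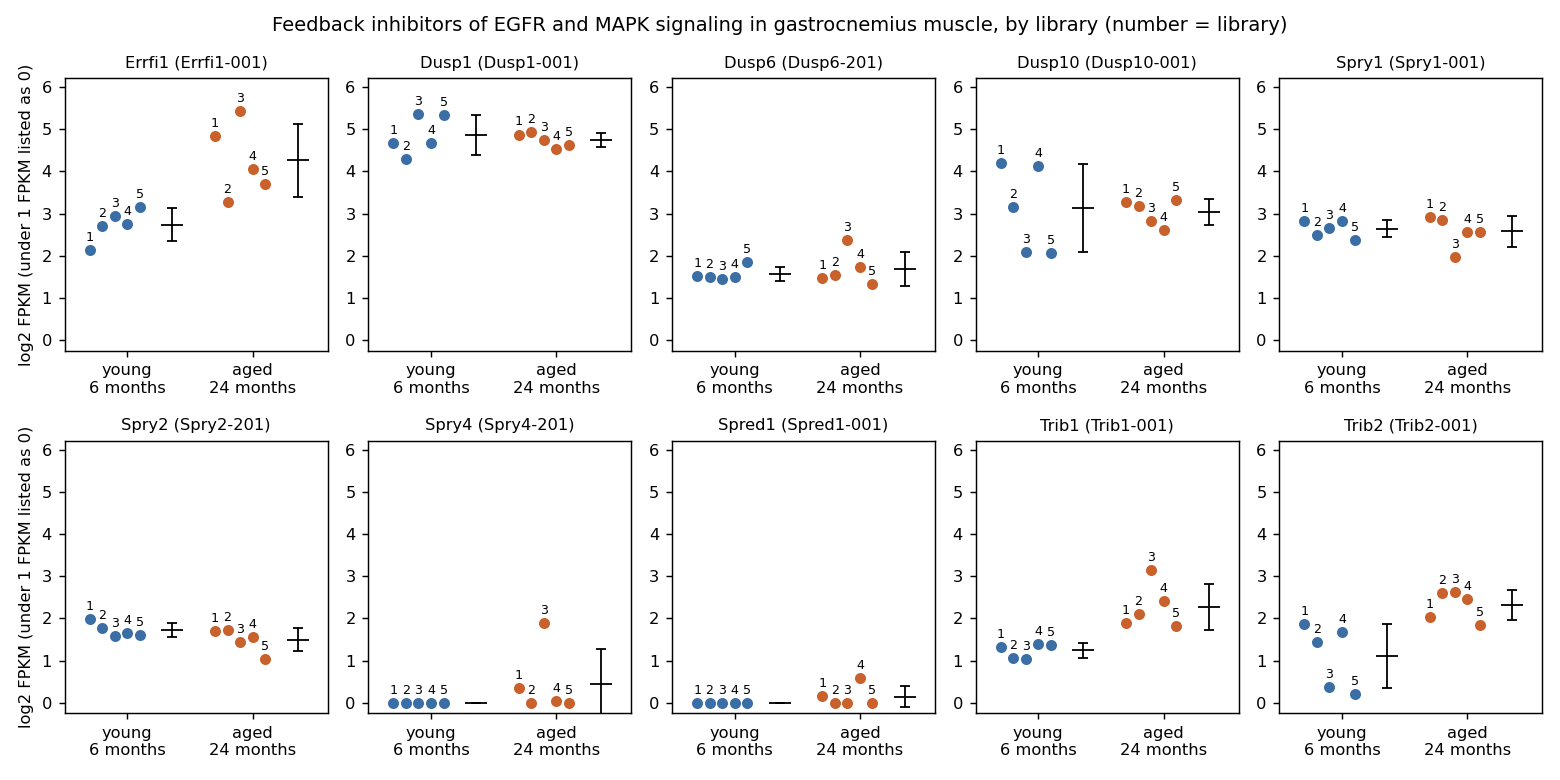
Deposited log2 FPKM (y axis) of the 10 members in each of the 5 young (blue) and 5 aged (orange) libraries, numbered by library, with the mean and SD (n = 5) beside each group. The aged points of Errfi1 (3.28 to 5.43) and Trib1 (1.82 to 3.15) lie above all young points, while Spry4 and Spred1 are listed at 0 in all young libraries.

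Errfi1 encodes a cytosolic protein, also called MIG6, which binds the kinase domain of EGFR and its relatives and blocks their activity. Its main transcript (Errfi1-001, ENSMUSG00000028967.10, chr4:150855073-150868887 on the plus strand of GRCm38) had log2 FPKM values of 2.13, 2.71, 2.94, 2.75 and 3.16 in young mice 1 to 5. In aged mice 1 to 5 the values were 4.84, 3.28, 5.43, 4.05 and 3.70. Aged libraries 3 and 1 were the highest, and aged library 2 lay only just above young library 5.

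The mean of Errfi1 was 2.74 ± 0.38 (SD, n = 5) at 6 months and 4.26 ± 0.87 (SD, n = 5) at 24 months, a difference of 1.52 or 2.87-fold. These values rest on 272 to 809 reads in young and 669 to 4160 reads in aged libraries. Without both libraries numbered 3 the difference was 1.28 and the ages still did not overlap. With each library left out in turn it lay between 1.23 and 1.77.

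The transcripts of Errfi1 share reads and were not equally different. Errfi1-002, which shares most of its exons, had a difference of 1.59 with no overlap between ages. Errfi1-003, a processed transcript of 546 bases from the 5′ end of the gene (chr4:150855073-150855814), had a difference of 0.72, with means of 2.68 ± 0.32 (SD, n = 5) at 6 months and 3.40 ± 0.49 (SD, n = 5) at 24 months, and overlapped. In aged library 3, where Errfi1-001 was highest, Errfi1-003 was lower than it by 2.51 on the log2 scale, whereas in the other 9 libraries this offset lay between -0.997 and 0.351.

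Dusp1 is a nuclear phosphatase that is rapidly induced by stress and growth factors and acts on p38, JNK and ERK. It was the most abundant member at both ages on the log2 FPKM scale. Its main transcript (chr17:26505590-26508519, minus strand) had 4.67, 4.29, 5.36, 4.67 and 5.33 in young mice 1 to 5, and 4.87, 4.94, 4.74, 4.53 and 4.62 in aged mice 1 to 5. Young libraries 3 and 5 were the highest of all, and the aged values lay within the range of the young.

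The mean of Dusp1 was 4.86 ± 0.46 (SD, n = 5) at 6 months and 4.74 ± 0.17 (SD, n = 5) at 24 months. The difference of -0.12 was within the pooled SD of 0.35 and was 0.00 without both libraries numbered 3. Dusp1-003, a transcript of 839 bases with a retained intron, was at 2.68 in aged library 3, which was 2.06 below the main transcript there, against 0.17 to 0.78 below it in the other 9 libraries.

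Dusp6 is a cytoplasmic phosphatase that acts on ERK, and its mRNA is a common readout of ERK activity. Dusp6-201 (chr10:99263231-99267488, plus strand) had 1.53, 1.49, 1.44, 1.50 and 1.85 in young mice 1 to 5, and 1.47, 1.54, 2.36, 1.73 and 1.34 in aged mice 1 to 5. Young library 5 and aged library 3 stood above the others of their age, and the ages overlapped. The means were 1.56 ± 0.17 (SD, n = 5) and 1.69 ± 0.40 (SD, n = 5), and the difference of 0.13 became -0.07 without both libraries numbered 3.

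Dusp10 acts on p38 and JNK rather than on ERK. Dusp10-001 (chr1:184034381-184075636, plus strand) had 4.19, 3.15, 2.09, 4.12 and 2.07 in young mice 1 to 5, and 3.28, 3.17, 2.81, 2.61 and 3.31 in aged mice 1 to 5. The young libraries fell far apart, with numbers 1 and 4 the highest and numbers 3 and 5 the lowest of all, while the aged libraries lay between them. The SD was 1.04 in young and 0.31 in aged muscle around means of 3.12 and 3.04 (n = 5 each), so that young muscle had the largest SD of the members for Dusp10. The difference was -0.09, and -0.29 without both libraries numbered 3, and it ran from -0.35 without young library 5 to 0.18 without young library 1.

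The Sprouty proteins are membrane-bound inhibitors that interrupt the signal from receptor tyrosine kinases to Ras and Raf. Spry1, which is known for holding satellite cells quiescent, was at 2.83, 2.50, 2.65, 2.83 and 2.38 in young mice 1 to 5, and at 2.93, 2.85, 1.98, 2.56 and 2.56 in aged mice 1 to 5 (Spry1-001, chr3:37639958-37644598, plus strand). Aged library 3 was the lowest. The means of 2.64 ± 0.20 (SD, n = 5) and 2.58 ± 0.37 (SD, n = 5) differed by -0.06, and by 0.09 without both libraries numbered 3.

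Spry2, a close relative that also binds the ubiquitin ligase CBL, was at 1.99, 1.78, 1.58, 1.66 and 1.61 in young mice 1 to 5, and at 1.70, 1.73, 1.43, 1.57 and 1.05 in aged mice 1 to 5 (gene at chr14:105891947-105896819, minus strand). Its mean was 1.73 ± 0.16 (SD, n = 5) at 6 months and 1.49 ± 0.28 (SD, n = 5) at 24 months. The difference of -0.23, about as large as the pooled SD of 0.23, was -0.25 without both libraries numbered 3 and -0.12 without aged library 5. All 5 same-numbered pairs had the lower value in the aged library, although the ages overlapped.

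Spry4 and Spred1 were near the limit of detection. Spry4 was listed at 0 in all 5 young libraries and at 0.35, 0.00, 1.88, 0.05 and 0.00 in aged mice 1 to 5, with a mean over all libraries of 0.600 FPKM. Aged library 3 carried most of this signal, and without both libraries numbered 3 the difference fell from 0.46 to 0.10.

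Spred1, which brings neurofibromin to the membrane to switch Ras off, was likewise listed at 0 in all young libraries (Spred1-001, chr2:117121374-117182279, plus strand). It had 0.16, 0.00, 0.00, 0.59 and 0.00 in aged mice 1 to 5, with a mean over all libraries of 0.262 FPKM. The 2 aged libraries above 0 held 143 and 240 reads on this transcript of 6016 bases, and since an FPKM under 1 is listed as 0 whatever its reads, a difference between ages below that limit cannot be seen in the table.

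The Tribbles genes encode pseudokinases that bring the ubiquitin ligase COP1 to its targets and bind MEK. Trib1-001 had 1.33, 1.06, 1.05, 1.40 and 1.37 in young mice 1 to 5, and 1.89, 2.11, 3.15, 2.40 and 1.82 in aged mice 1 to 5 (gene at chr15:59648350-59657099, plus strand). The young libraries were tightly grouped, and all aged libraries were above them, with library 3 the highest. The means were 1.24 ± 0.17 (SD, n = 5) and 2.28 ± 0.54 (SD, n = 5).

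The difference of Trib1 was 1.03, or 2.05-fold, on 192 to 270 reads in young and 270 to 1069 reads in aged libraries. It was 0.77 without both libraries numbered 3, again with no overlap. A second transcript of the gene, Trib1-002, was listed at 0 in all 5 young libraries and in aged library 3, and had between 71 and 178 reads in the other 4 aged libraries.

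Trib2-001 (chr12:15791727-15816785, minus strand) had 1.86, 1.45, 0.37, 1.67 and 0.20 in young mice 1 to 5, and 2.04, 2.61, 2.63, 2.46 and 1.84 in aged mice 1 to 5. The ages overlapped by a narrow margin, since aged library 5 was just below young library 1, and every same-numbered pair had the higher value in the aged library. The young libraries fell apart, with numbers 3 and 5 far below the other 3. The mean was 1.11 ± 0.77 (SD, n = 5) at 6 months and 2.32 ± 0.36 (SD, n = 5) at 24 months, a difference of 1.20 or 2.30-fold, which was 0.94 without both libraries numbered 3.

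**Figure D2:**
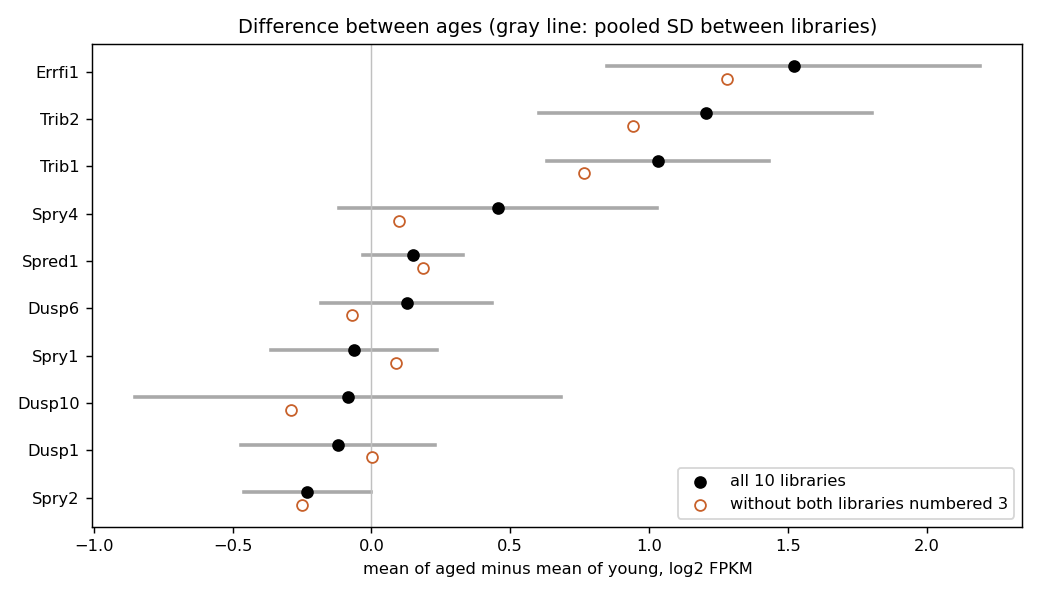
Mean of aged minus mean of young libraries on the log2 FPKM scale (x axis) for each member, with all 10 libraries (filled circles, gray line = pooled SD to either side) and without both libraries numbered 3 (open circles). Errfi1, Trib2 and Trib1 lie at 1.52, 1.20 and 1.03, and Dusp1, Dusp6 and Spry1 change sign without the libraries numbered 3.

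Short transcripts from the 5′ end of the gene were listed for Trib2 and Dusp10 too. Trib2-002, of 810 bases at chr12:15815884-15816877, was listed at 0 in both libraries numbered 3 and in young library 5. Trib2-001 itself was at 0.37 in young library 3, 0.20 in young library 5 and 2.63 in aged library 3. Dusp10-002, of 724 bases and starting at the 5′ end of the gene (chr1:184013302-184037274), was listed at 0 in both libraries numbered 3 and in no other, with Dusp10-001 at 2.09 and 2.81 there. Where they were above 0, these rows lay 0.38 to 1.48 and 0.76 to 1.49 below the main transcript on the log2 scale. The part of this offset in the values of the main transcripts was not tested.

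**Figure D3:**
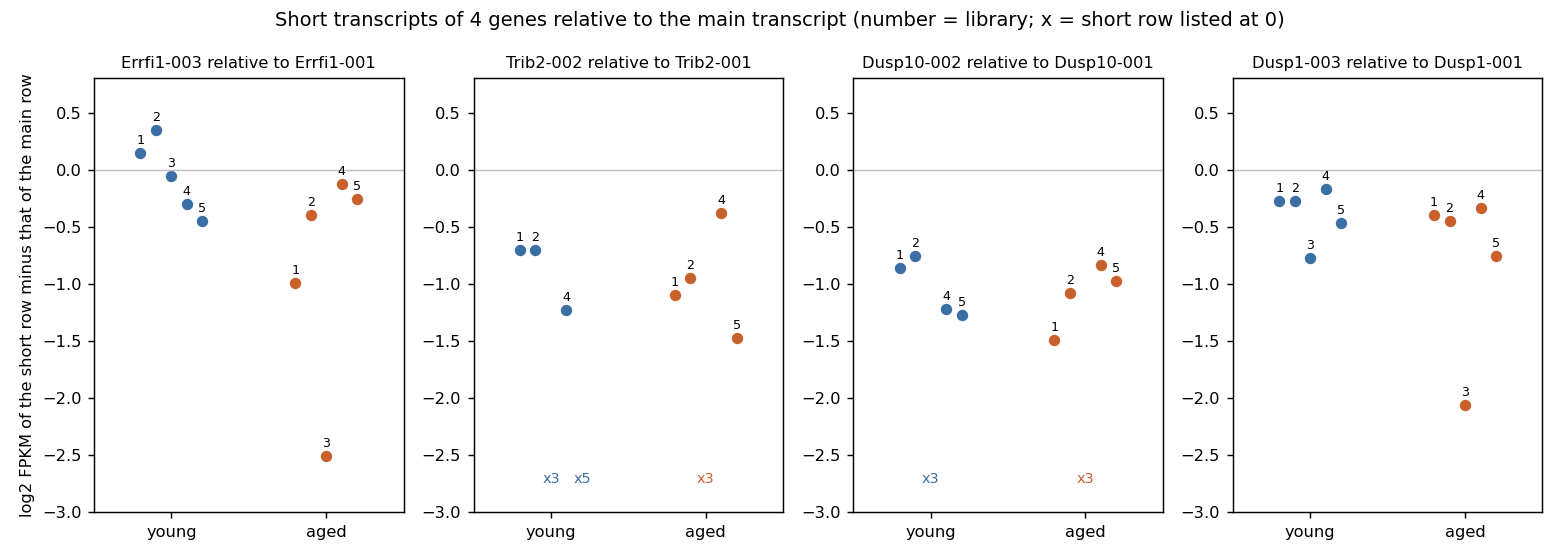
Log2 FPKM of a short transcript minus that of the main transcript of the same gene (y axis) in each young (blue) and aged (orange) library, for Errfi1, Trib2, Dusp10 and Dusp1, with a cross where the short transcript is listed at 0. Aged library 3 is the lowest for Errfi1 (-2.51) and Dusp1 (-2.06), and the short transcripts of Trib2 and Dusp10 are listed at 0 in both libraries numbered 3.

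The order of the members by mean log2 FPKM, a level per length of transcript, was Dusp1, Dusp10, Errfi1, Spry1, Spry2, Dusp6, Trib1 and Trib2 in young muscle, followed by Spry4 and Spred1 at 0. In aged muscle it was Dusp1, Errfi1, Dusp10, Spry1, Trib2, Trib1, Dusp6, Spry2, Spry4 and Spred1. Errfi1 thus stood next to Dusp1, with mean levels of 22.2 and 26.9 FPKM in aged muscle against 6.86 and 30.3 FPKM in young muscle. In young muscle, only the steps from Dusp1 to Dusp10, from Spry1 to Spry2, from Dusp6 to Trib1 and from Trib2 to the genes at 0 exceeded the larger SD of the neighbors. In aged muscle, these were the steps from Errfi1 to Dusp10, from Dusp10 to Spry1, from Trib1 to Dusp6 and from Spry2 to Spry4.

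The members did not vary as 1 block among mice of the same age. After each value was centered on the mean of its age, the median Pearson r over the 28 pairs of the 8 members above 0 in all libraries was 0.05 (n = 10 libraries), with 5 pairs over 0.5 and 5 under -0.5. Dusp10 and Trib2 varied together (r = 0.76, and 0.74 without both libraries numbered 3, n = 8), both being low in young libraries 3 and 5. Dusp1 was high in the same libraries, and its r with Trib2 was -0.70 (-0.62 with n = 8). Dusp6 and Trib1 had the highest r, 0.94, which was 0.72 with n = 8.

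The r between Errfi1 and Trib1 was 0.54 with all 10 libraries and -0.10 with n = 8, so that it rested on the libraries numbered 3. For Errfi1 and Dusp6 it was 0.67 and 0.28, and for Dusp6 and Spry1 it was -0.81 and -0.44. All these points share their libraries, and r is given as a description.

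**Figure D4:**
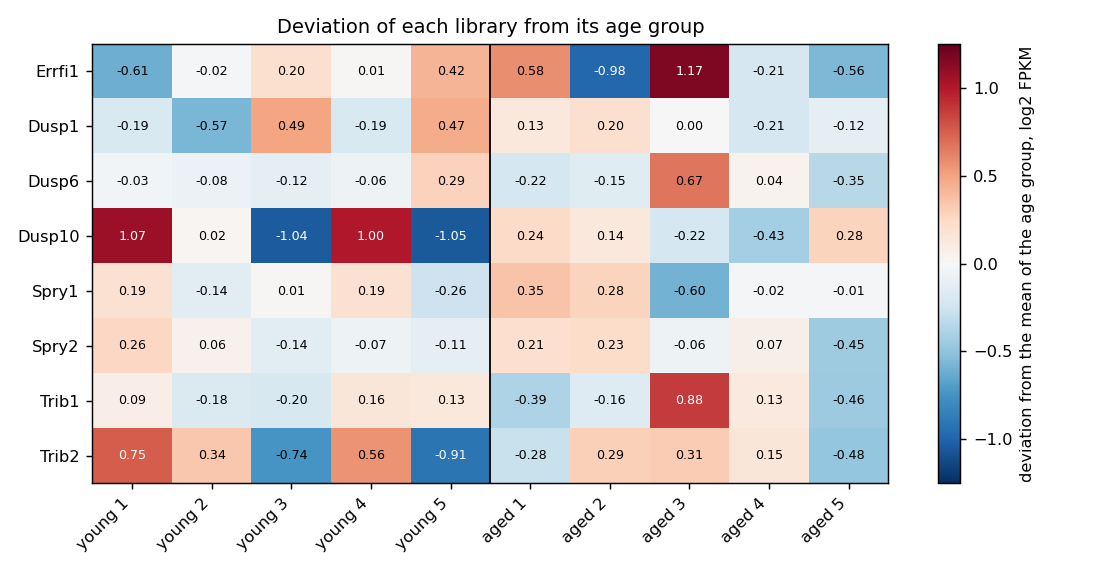
Deviation of each library (columns) from the mean of its age group, in log2 FPKM (color scale, red above and blue below), for the 8 members above 0 in all libraries (rows). Aged library 3 is high for Errfi1 (1.17), Trib1 (0.88) and Dusp6 (0.67) and low for Spry1 (-0.60), and young libraries 3 and 5 are low for Dusp10 and Trib2.

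Among 8208 genes above 0 in all libraries, those whose deviations within age were most like the median profile of the members were Kbtbd3 (r = 0.94), Oaf (0.93), Gamt (0.93), Marcks (0.93) and Slc25a29 (0.92), over n = 10 libraries. The gene most like Errfi1 was Btg2 (r = 0.95, and 0.90 without both libraries numbered 3), an antiproliferative immediate early gene, and that most like Trib1 was Igtp (0.94 and 0.85), an interferon-induced GTPase. Gbp6, another interferon-induced GTPase, was most like Dusp6 (0.94 and 0.90). The corresponding genes were Gm129 for Dusp1 (0.92), AC166052.1 for Dusp10 (0.95), Trpm4 for Spry1 (0.95), Mpp3 for Spry2 (0.95) and Cxxc5 for Trib2 (0.89). These are the highest of 8208 values for each member, over few libraries.

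The pathway around the members was read from 11 lists of 139 genes, of which 137 were found, 27 were listed at 0 in every library and 91 were tested. By the criteria of the study (means more than 1 apart in log2 FPKM, and an unadjusted p under 0.05 in a 2-sample equal-variance test), 5 of the 91 genes were higher in aged muscle and none was lower, or 3 higher when genes had to be above 0 in all libraries. Of these 5, Egr1 and Fos passed the filter only through aged muscle, and without them 3 of 89 genes were higher. Over all 10161 genes tested, 106 (1.04%) were higher and 7 (0.0689%) were lower by these criteria, and with the library number as a block 4 were lower. By limma with Benjamini-Hochberg adjustment, none of the 91 pathway genes had an adjusted p under 0.05, while 11 higher (12.1%) and 2 lower (2.20%) genes had an unadjusted limma p under 0.05, against 615 (6.05%) and 89 (0.876%) of all genes tested. Of the 11, 8 were in the list of immediate early transcription factors, and 9 of 89 (10.1%) were higher without Egr1 and Fos, which passed the filter only through aged muscle. The lists were chosen with earlier results known, so that nothing is read from these shares. Of all genes tested, 1 (0.00984%) passed limma at its main transcript, and of 38059 transcripts 3 passed, or 0 with the library number as a block.

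The upstream part of the pathway showed no gene past the criteria, which 1.04% of all genes tested passed as higher and 0.0689% as lower. So few genes were tested here that nothing is read from this. Of 11 ErbB ligands, 9 were listed at 0 in all libraries, and Hbegf, a membrane-anchored ligand of EGFR, had the larger difference of the 2 tested (-0.56, limma SE 0.34, adjusted p = 1.00). Egfr itself, the receptor that Errfi1 inhibits, had a mean of 0.270 FPKM and was above 0 in only 2 libraries, and Erbb2, Erbb3 and Erbb4 were listed at 0. Among 5 receptor tyrosine kinases tested, Insr, the insulin receptor, had a difference of 0.27 (limma SE 0.33, adjusted p = 1.00), which was 0.09 without young library 3, 0.12 without aged library 4, 0.10 without aged library 5 and 0.48 without aged library 3. Among 10 adaptors and Ras genes, 7 were higher in mean, with Rras, a Ras-related GTPase, at 0.80 (limma SE 0.28, adjusted p = 1.00).

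The kinases of the cascades were mostly lower in mean in aged muscle with all 10 libraries, an excess that rested in part on the libraries numbered 3. Of 12 kinases and scaffolds of the ERK cascade, 3 were higher in mean and the median difference was -0.21, but without both libraries numbered 3 these became 7 and 0.02. Map2k2 (MEK2) was at -0.38 (limma SE 0.21, adjusted p = 1.00), and at -0.14 without both libraries numbered 3. Of 12 JNK and p38 cascade kinases none was higher in mean and the median was -0.25, against 4 and -0.08 without both libraries numbered 3. Map2k6, an activator of p38, was at -0.47 (limma SE 0.20, adjusted p = 1.00). The median over all genes was 0.07 with all 10 libraries, and is not given here without both libraries numbered 3. A shift of genes in general on leaving those out was therefore not told apart from one of the kinases. None of these kinases passed the criteria, and with the shares of all genes at 1.04% and 0.0689% nothing is read from this.

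No gene passed the criteria among the other inhibitors outside the 10 members. With 1.04% of all genes tested higher and 0.0689% lower by the criteria, nothing is read from this. The 15 other dual-specificity phosphatases tested had a median difference of 0.00, 8 of them being higher in mean, and Dusp26 was at 0.58 (limma SE 0.39, adjusted p = 1.00), or 0.24 without aged library 5. Dusp7, an ERK phosphatase, was at -0.55 (limma SE 0.21, adjusted p = 1.00). None of the other Sprouty, Spred and Tribbles genes reached the filter, with Spred3 and Trib3 listed at 0. The 7 other negative regulators had a median of -0.09, or 0.17 without both libraries numbered 3. Among them Rasa3, a GTPase-activating protein that switches Ras off, had every aged library above every young one, with a difference of 0.70 (limma SE 0.17, adjusted p = 0.619). That order was shown by 2.08% of all genes tested. Of the 7, 3 were higher in mean. Lrig1 was lower, at -0.52 (limma SE 0.27) and at -0.32 without both libraries numbered 3.

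Of the 5 genes past the criteria, 4 were immediate early transcription factors or stress genes of that list, which ERK, p38 and other signals induce within minutes. Of 13 tested, 11 were higher in mean, 4 passed the criteria as higher and the median difference was 0.96. Leaving out Egr1 and Fos, which passed the filter only through aged muscle, 9 of 11 were higher in mean, 2 passed the criteria and the median was 0.85. Egr1, a zinc finger factor that is a textbook ERK target, was at 1.34, 0.00, 0.21, 0.00 and 0.00 in young mice 1 to 5, and at 5.17, 3.92, 5.88, 4.00 and 0.23 in aged mice 1 to 5. Aged library 5 lay within the young range and the other 4 aged libraries far above it. The difference of Egr1 was 3.53, and 4.43 without aged library 5. It depends on the values listed at 0 and was 5.52 on log2(FPKM + 0.1). Since Egr1 passed the filter through the aged group alone (mean 0.737 FPKM in young and 25.5 FPKM in aged muscle), no p is given for it.

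Junb, an AP-1 subunit, was at 1.79, 1.25, 1.93, 1.67 and 1.30 in young mice 1 to 5, and at 4.11, 3.25, 5.26, 4.16 and 2.90 in aged mice 1 to 5, without overlap (difference 2.35, limma SE 0.40, adjusted p = 0.273). Fos, its partner in AP-1, was between 0.00 and 0.63 in young muscle and at 3.27, 3.37, 0.00, 2.83 and 1.82 in aged mice 1 to 5. Aged library 3, the highest for Errfi1, Trib1, Egr1 and Junb, was thus listed at 0 for Fos. The difference of Fos was 2.02, and 2.59 without aged library 3, and Fos too passed the filter through the aged group alone (mean 0.799 and 6.11 FPKM), so that no p is given. Ier3, a stress-induced gene which also counts among the ERK output genes, was higher by 1.44 (limma SE 0.37, adjusted p = 0.700) with no overlap between ages.

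Of 5 ERK output genes tested, Ier3 was the gene past the criteria, and the median difference was 0.74, or 0.62 without both libraries numbered 3. The other 4 were Myc (0.96, limma adjusted p = 0.684), Ccnd1 (0.74), Etv5 (-0.03) and Phlda1 (-0.04). Like Ier3, Myc is also in the list of immediate early transcription factors. The median is the value of Ccnd1, which was above 0 in 8 libraries and at 1.18, 0.60, 1.52, 2.08 and 0.00 in aged mice 1 to 5. Etv5 and Phlda1 differed by far less than their SD within either age (at least 0.81 and 0.43). Of 12 genes induced by glucocorticoids, hormones that also induce Errfi1 and Dusp1, 7 were higher in mean with a median of 0.24, or 9 with a median of 0.51 without both libraries numbered 3. Cdkn1a, the cell cycle inhibitor p21, which p53 induces as well, passed the criteria with no overlap between ages (difference 1.88, limma SE 0.44, adjusted p = 0.599). The other 11 ran both ways, from Fkbp5 at -1.20 (limma adjusted p = 1.00, and a difference of -0.38 without both libraries numbered 3) to Mt2 at 1.78 (limma adjusted p = 1.00). The difference of Mt2 was 1.54 without both libraries numbered 3. Its value was 8.09 in aged library 3, against 2.58 to 6.13 in the other aged libraries.

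**Figure D5:**
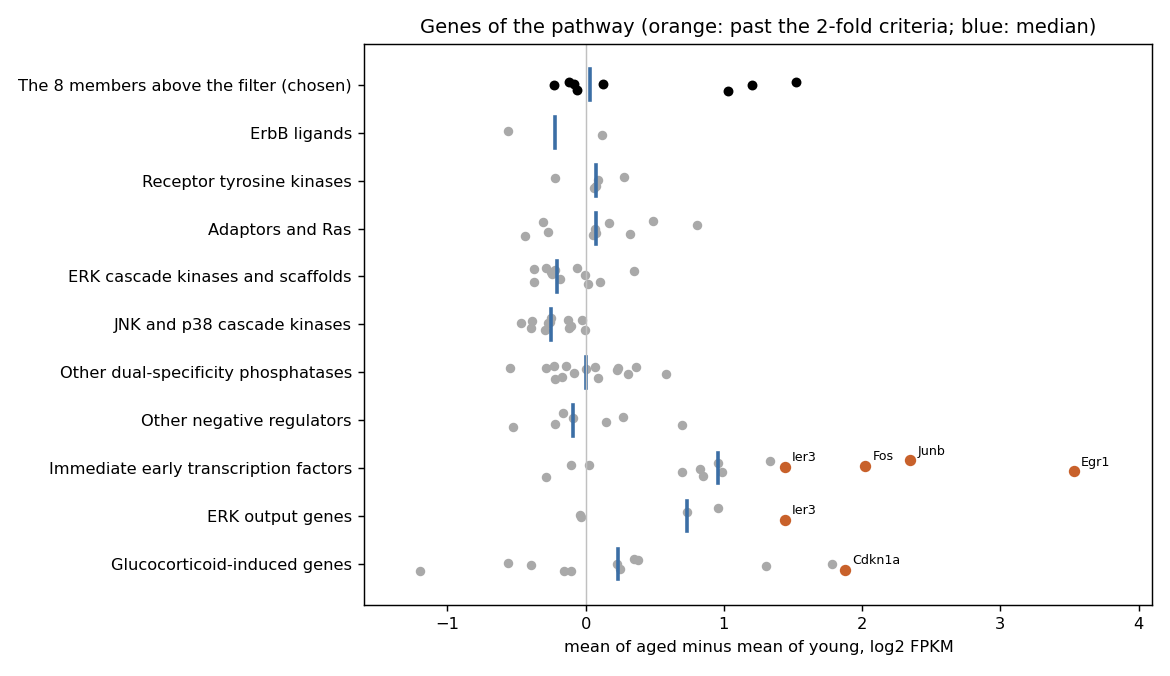
Mean of aged minus mean of young libraries in log2 FPKM (x axis) for the 8 members above the filter (black, chosen genes) and for the tested genes of each pathway list (gray), with genes past the 2-fold criteria in orange and the median of each list as a blue line. The immediate early transcription factors have the highest median (0.96, or 0.85 without Egr1 and Fos). Egr1, Junb, Fos, Ier3 and Cdkn1a are the genes past the criteria, of which Egr1 and Fos passed the filter only through aged muscle.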

How the data were processed

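Poly-A RNA of gastrocnemius muscle was sequenced from 5 young and 5 aged mice. Reads were aligned by TopHat2, which calls Bowtie2, on build mm10 (submitters' processing notes and methods). The authors deposited log2 FPKM per transcript, with no pooling of replicates. The methods describe an FPKM for RefSeq gene models, whereas the rows carry Ensembl and Vega transcript names, so how reads shared by transcripts were assigned is unknown. The program that counted the reads is not given in the sources used here. Groups and library numbers came from the labels. Depths and read numbers were recovered from the steps between values, and in all 1500 transcripts sampled the reads were whole within 0.02. They describe precision only, and read counts cover counting error only.

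The members, the pathway lists and the marker lists were chosen with earlier results of these data known. The 38059 transcripts whose mean FPKM was 1 or more were compared with limma 3.58.1 in R 4.3.3, with Benjamini-Hochberg adjustment over all of them. The script was tested on simulated data. Genes were counted at the transcript with the highest mean. All 10 members were named, together with up to 4 genes past the criteria in each list or, where none passed, the gene with the largest difference among those above 0 in all libraries. Genes named beyond this rule (the ErbB receptors, Spred3, Trib3, Dusp7, Lrig1, Myc, Ccnd1, Etv5, Phlda1, Fkbp5 and Mt2) were chosen after their values were seen. The genes most like each member were those with the highest r.

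The same numbers 1 to 5 occur in both ages, although the mice differ and the labels do not say what a number shares. Over the transcripts tested, same-numbered young and aged libraries deviated together (r = 0.13, 0.33, 0.69, 0.39 and 0.21), so the number was also used as a block. For numbers 1, 4 and 5 a differently numbered library had a higher r (up to 0.39, 0.54 and 0.54). Alternatives were another pseudocount, scaling or filter, the block, an intensity trend in limma, medians, and leaving out libraries. Promoters and mature miRNAs came from RefSeq (GRCm38.p6), and 3′ UTRs and transcripts from GENCODE on GRCm38. A promoter was found for 8 members. Spry3 and Hras were not found by symbol.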

Additional observations from a re-analysis of the deposited data

Results flagged for a closer look

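Among 44 groups of 5 libraries (22 gene entries at each age), 7 had 1 library farther from the others than Dixon's test allows, where chance gives about 1 in 20 for values with a normal spread. That rate does not apply to groups with values listed at 0, such as Spry4 and Spred1 in aged muscle and Egr1 in young muscle, and the young groups of Spry4 and Spred1 are all at 0. Of the members, Dusp6 was at 1.85 log2 FPKM in young library 5, against 1.44 to 1.53 in the other young libraries. Spry4 was at 1.88 in aged library 3, against 0.00 to 0.35 in the other aged libraries, and Spred1 was at 0.59 in aged library 4, against 0.00 to 0.16.

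Of the pathway genes, Insr was low in young library 3 (1.54, others 2.38 to 2.54) and Rras was high in the same library (4.24, others 3.23 to 3.48). Egr1 was at 1.34 in young library 1, against 0.00 to 0.21 in the other young libraries, and Ier3 was at 0.72 in young library 5, against 1.50 to 1.78. Of the 7 values, 3 came from a library numbered 3.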

How the results depend on the processing

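The median difference of the members (0.14) was 0.29 on log2(FPKM + 1) and 0.56 on log2(FPKM + 0.1), where values listed at 0 count as an FPKM of 0, 0.07 under quantile normalization, 0.05 with group medians, the lowest of 17 settings, and 0.08 to 0.20 when 1 library was left out. The number of members with all aged above all young libraries went from 2 to 1 under quantile normalization and 1 under the median of ratios, and was 2 to 3 with 1 library left out. Errfi1 (1.23 to 1.77), Trib1 (0.76 to 1.15) and Trib2 (0.87 to 1.39) kept their direction under all 17 settings run for each, as did Spry2 (-0.29 to -0.09), whereas Dusp1, Dusp6, Dusp10 and Spry1 changed sign under 2 to 4 settings. Spry4 (0.46) and Spred1 (0.15) moved to 2.51 and 1.52 on log2(FPKM + 0.1), above Errfi1 (1.51), and Spred1 to 0.48 on log2(FPKM + 1), 0.04 without aged library 4 and 0 with group medians. The cause was not tested.

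The 3 transcripts higher by limma became 5 on log2(FPKM + 1), 19 on log2(FPKM + 0.1) (with 3 lower, against 0), 5 among transcripts above 0 in all libraries, 11 without both libraries numbered 3, and 0 under either rescaling. With 1 library left out they numbered 0 to 23, with 23 without aged library 3, 11 without aged library 5 and 0 without 7 of the other libraries. The genes past the 2-fold criteria (106 higher, 7 lower) became 61 higher among transcripts above 0 in all libraries and 3 lower without both libraries numbered 3, and with 1 library left out 78 to 140 were higher and 4 to 11 lower. The lower genes numbered 4 without young library 3, 4 without young library 5 and 11 without aged library 1. Of the pathway genes, 3 rather than 5 passed when values above 0 in all libraries were required, and 5 to 8 with 1 library left out (8 without aged library 5). Limma called 0 pathway genes, and 1 without aged library 3 (Fos) or without aged library 5 (Egr1), a range of 0 to 1, both being genes that passed the filter only through aged muscle.

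With the replicate number as a block (the pairing of libraries), limma called 0 transcripts and 0 pathway genes, and 90 genes were higher and 4 lower by the criteria (106 and 7 without it), while none of the named pathway genes changed its call. Transcripts under 1 FPKM (19.9 to 34.6 reads per kb) were not resolved, which covers Spry4 and Spred1 in all young libraries.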
